A study of Mus musculus with 40 samples.

Results

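The transcription factors examined were Gata4, Gata6, Pdx1, Cdx1, Cdx2, Hnf4a and Hnf4g, genes known for setting which part of the gut an epithelial cell belongs to. They were taken by name, and all 7 had a row among the 15958 genes of the deposited table. RNA had been sequenced from the duodenum and from the ileum below the surgical join (post-anastomotic ileum) of wild-type C57BL/6 male mice in a model of short bowel syndrome. Operations were done at 8 weeks of age, as small bowel resection (SBR) of 50 to 60% per the labels (the methods of the study give a larger share) or as sham surgery, in which the bowel was cut and rejoined. Dosing began 3 weeks later and lasted 7 weeks, so tissue was taken 10 weeks after surgery. Each region had 3 libraries of sham mice given vehicle (sham vehicle), 4 of resected mice given vehicle (SBR vehicle) and 4 of resected mice given WUSTL0717, a gut-restricted agonist of the liver X receptors, at 30 mg/kg daily (SBR WUSTL0717). The resected stretch lay between the regions sampled, the duodenum being kept. The remaining 18 libraries of the table came from the liver, formed another batch and entered no comparison here. Where along the remaining ileum each piece was cut was not stated in the sources used here.

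In the adult small intestine, GATA4 and GATA6 are zinc finger factors of the epithelium, and GATA4 is known to be made in the proximal and middle small intestine and to be lost in the terminal ileum, where its absence allows the bile acid genes to be used. PDX1 is a homeodomain factor of the pancreas and duodenum. CDX1 and CDX2 are caudal homeodomain factors that separate intestine from stomach, and HNF4A and HNF4G are nuclear receptors that drive the absorptive and brush border genes of enterocytes. Pdx1 and Cdx2 belong to the same ParaHox gene cluster.

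In the GRCm38 annotation (GENCODE M21), Pdx1 (ENSMUSG00000029644) lies at chr5:147269959-147275848 on the plus strand and Cdx2 (ENSMUSG00000029646) at chr5:147300805-147307270 on the minus strand, with 24956 bases between them. Gata4 (ENSMUSG00000021944) lies at chr14:63198922-63271692 on the minus strand, Hnf4a (ENSMUSG00000017950) at chr2:163506808-163572910 and Hnf4g (ENSMUSG00000017688) at chr3:3508030-3658052, both on the plus strand. The antisense gene Hnf4aos overlaps Hnf4a by 34913 bases and has its own row in the table. Whether reads were counted by strand was not stated, so reads of Hnf4a and Hnf4aos may not be fully separated.

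RefSeq promoter windows (GRCm38.p6, the 250 bases before the transcript start, read 5′ to 3′ on the gene's strand) were at hand for 3 of the 7 factors, Pdx1, Cdx2 and Hnf4a. They are shown for Pdx1 and Cdx2, whose levels as deposited ran in opposite directions between the regions, for the upstream of 2 starts of Hnf4a, the only factor window with a match, and for Lct, Fabp6 and Slc10a2, genes known to depend on GATA4 whose ileal levels are set beside that factor in the results. Capitals mark the letters AGATAA, a form of the GATA motif, and TTTAT, the core of the CDX motif, on either strand (the reverse forms are TTATCT and ATAAA). The windows are chr5:147269847-147270096 (plus) for Pdx1, chr5:147307250-147307499 (minus) for Cdx2, chr2:163506607-163506856 (plus) for Hnf4a, chr1:128328319-128328568 (minus) for Lct, chr11:43601563-43601812 (minus) for Fabp6 and chr8:5105288-5105537 (minus) for Slc10a2.
Pdx1: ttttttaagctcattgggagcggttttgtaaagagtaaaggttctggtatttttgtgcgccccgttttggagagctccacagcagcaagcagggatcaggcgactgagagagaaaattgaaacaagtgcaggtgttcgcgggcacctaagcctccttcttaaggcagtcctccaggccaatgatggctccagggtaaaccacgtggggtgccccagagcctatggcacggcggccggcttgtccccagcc
Cdx2: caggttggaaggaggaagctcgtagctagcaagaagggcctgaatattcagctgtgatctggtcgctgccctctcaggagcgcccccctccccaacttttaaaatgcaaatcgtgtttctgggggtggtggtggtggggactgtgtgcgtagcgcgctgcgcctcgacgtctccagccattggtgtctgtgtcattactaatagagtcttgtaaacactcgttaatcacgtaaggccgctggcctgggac
Hnf4a: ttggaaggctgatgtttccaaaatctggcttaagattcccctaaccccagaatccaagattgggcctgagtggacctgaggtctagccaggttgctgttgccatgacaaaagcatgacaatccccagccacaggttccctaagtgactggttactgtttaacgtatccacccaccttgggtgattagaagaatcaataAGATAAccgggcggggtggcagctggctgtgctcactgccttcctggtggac
Lct: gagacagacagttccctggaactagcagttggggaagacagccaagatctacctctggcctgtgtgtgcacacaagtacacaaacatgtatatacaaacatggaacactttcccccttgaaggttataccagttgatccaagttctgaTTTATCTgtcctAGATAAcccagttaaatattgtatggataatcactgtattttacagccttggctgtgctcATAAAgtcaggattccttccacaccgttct
Fabp6: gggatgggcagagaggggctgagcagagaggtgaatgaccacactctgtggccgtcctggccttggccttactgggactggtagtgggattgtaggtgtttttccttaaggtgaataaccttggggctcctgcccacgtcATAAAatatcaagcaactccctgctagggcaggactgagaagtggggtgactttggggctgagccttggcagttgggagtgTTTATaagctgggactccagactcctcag
Slc10a2: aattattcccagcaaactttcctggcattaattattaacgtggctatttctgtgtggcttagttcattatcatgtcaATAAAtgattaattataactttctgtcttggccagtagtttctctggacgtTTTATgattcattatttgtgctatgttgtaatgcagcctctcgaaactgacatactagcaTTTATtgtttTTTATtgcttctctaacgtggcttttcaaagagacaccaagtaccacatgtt

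The Lct window held 2 GATA matches and 2 CDX matches, and a CDX match shares letters with the GATA match farther from the start. Fabp6 held 2 CDX matches and Slc10a2 held 4, with no GATA match in either. The Hnf4a window held 1 GATA match, 52 bases before the RefSeq start, and that of its other start (chr2:163546905-163547154) held none. The Pdx1 and Cdx2 windows held neither motif. RefSeq starts can differ from those of GENCODE, and the windows of Pdx1, Cdx2, Hnf4a and Slc10a2 reach into the genes as GENCODE annotates them. Of 32851 promoter windows of the same length, 9.99% held AGATAA and 37.3% held TTTAT, so a CDX match is common by its letters alone. These are matches of letters in a window and were not measured as binding.

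Values were log2 TPM (a read level scaled for gene length and library size) after batch correction, a scale on which a difference of 1 stands for a 2-fold change before that correction. The correction shifts and rescales each gene separately, so differences are given as log2 units of the corrected values and not as folds. It can give values below 0 and prevents comparing the level of a factor with that of another or with the liver. No read totals came with the table, so the depth behind each value is unknown. The median gene of a library lay between 2.13 and 3.09 in the duodenum and between 3.18 and 3.82 in the ileum. The median difference over all genes tested was −0.52 in sham vehicle, −0.98 in SBR vehicle and −0.95 in SBR WUSTL0717 mice (duodenum minus ileum), and differences of the factors between regions are given both as deposited and after each library was centred on its own median.

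Markers checked the labelled regions. Distal markers averaged 4.32 to 5.33 in the ileum and 1.53 to 2.11 in the duodenum, and proximal markers averaged 2.74 to 3.90 and 5.23 to 6.44 in the same order. Duodenal libraries also held RNA of neighbouring tissue: the mean of 11 pancreas markers ran from 1.57 to 6.72 there and from −0.03 to 0.19 in the ileum, and 9 of the 11 were higher in the duodenum in every arm. The mean of 4 stomach markers was 6.05 to 6.96 in the 3 sham vehicle libraries, in SBR vehicle 1 and 2 and in SBR WUSTL0717 1, but only −0.06 to 1.30 in the other 5 duodenal libraries and below 0 in every ileal library. In tissue pieces such as these, fewer cells of a type and less RNA per cell cannot be told apart.

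**Figure D1:**
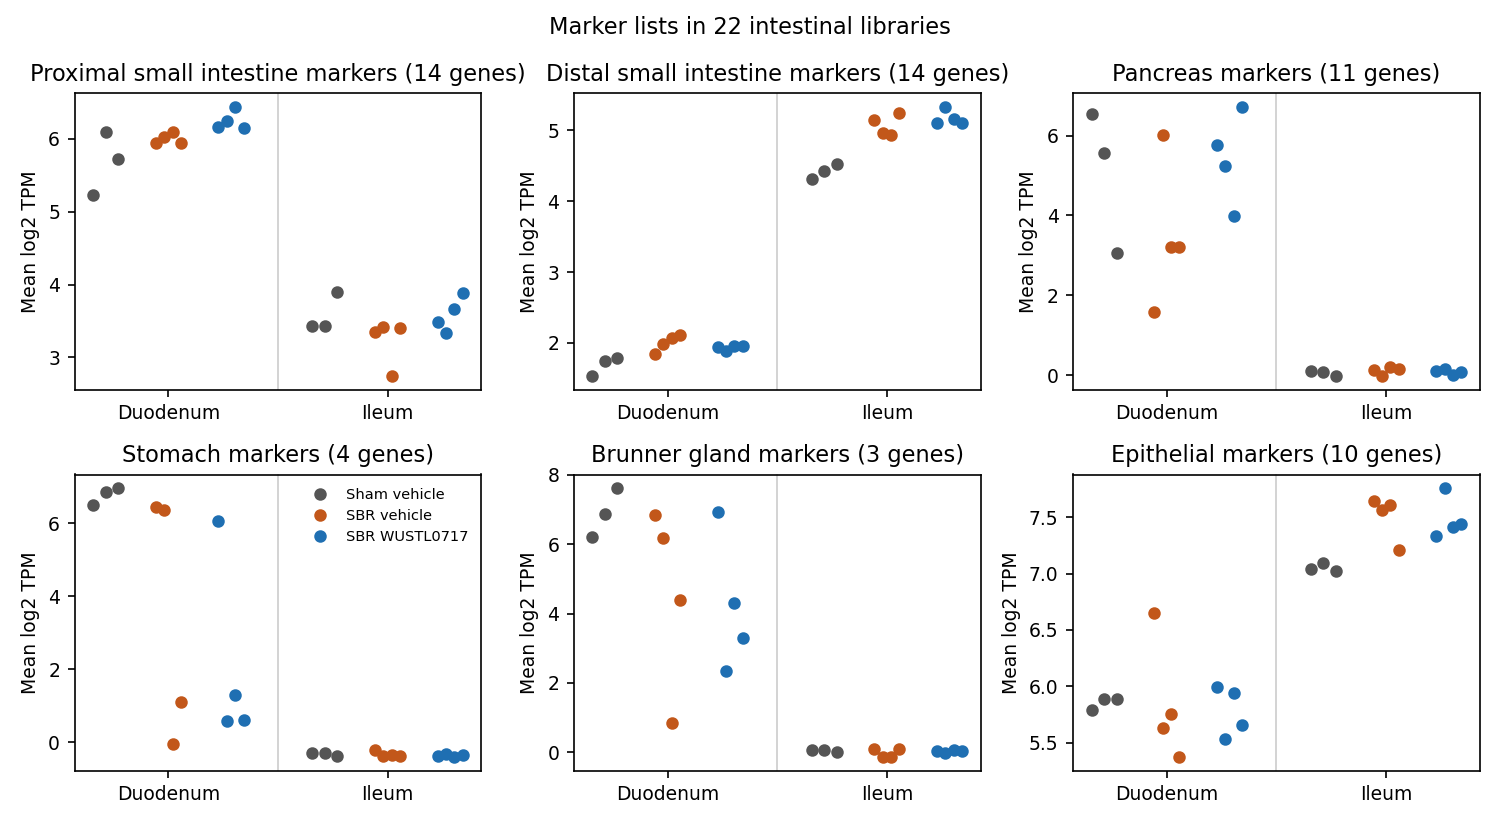
Mean log2 TPM of 6 marker lists (y axis) in each of the 22 intestinal libraries (points), by region (x axis) and group (color). Pancreas markers run from 1.57 to 6.72 in the duodenum, and stomach markers split the duodenal libraries into 6 high (6.05 to 6.96) and 5 low (−0.06 to 1.30) ones.

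The regional comparison asked how the factors differ along the bowel within each arm. Pdx1 and Gata6 were higher in the duodenum and Hnf4a was higher in the ileum in all 3 arms. Gata4 was higher in the duodenum of the resected arms, whereas its difference in the sham arm did not pass the test. Cdx1 and Cdx2 were slightly higher in the ileum as deposited, but not after libraries were centred. In sham vehicle mice, 3 of the 7 factors passed limma's test at an adjusted p under 0.05, 2 of them higher in the duodenum and 1 lower, while 14.6% of 15923 genes passed (3.83% higher and 10.8% lower). In SBR vehicle mice 6 of 7 passed, 3 in each direction, beside 56.9% of all genes (6.77% higher and 50.2% lower). In SBR WUSTL0717 mice 6 of 7 again passed, 3 in each direction, beside 55.9% (7.13% higher and 48.7% lower). With each library centred, calls over all genes changed from 610 higher and 1721 lower to 1177 and 843 in the sham arm, from 1078 and 7990 to 2637 and 2311 in SBR vehicle and from 1136 and 7759 to 2522 and 2215 in SBR WUSTL0717 mice. Quantile normalization gave 1259 and 1079, 2407 and 2986, and 2187 and 2696 in the same order.

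Pdx1 was high in the duodenum and near the floor of the table in the ileum. In the duodenum it measured 4.37, 4.29 and 4.70 in sham vehicle, 4.81, 4.37, 4.26 and 4.42 in SBR vehicle and 4.55, 3.89, 4.30 and 4.58 in SBR WUSTL0717 mice. In the ileum it measured −0.94, −0.70 and −0.75, then −0.77, 0.47, −0.66 and −0.82, then −0.63, −0.83, −0.84 and −0.80. Every duodenal library was thus more than 3 log2 units above every ileal library, and only SBR vehicle 2 lay above 0 in the ileum. The difference was 5.25 (SE 0.305, adjusted p = 6.57e-11, limma) in sham vehicle, 4.91 (SE 0.264, adjusted p = 9.62e-12) in SBR vehicle and 5.11 (SE 0.264, adjusted p = 4.18e-12) in SBR WUSTL0717 mice, and centring gave 5.70, 5.85 and 5.99. Pdx1, with a mean of 1.88 over the 22 libraries, passed the filter of a mean of 1 only through its duodenal values. Because ileal values are near the floor, the size of the difference depends on the pseudocount. With a pseudocount of 5 the differences were 2.37, 2.36 and 2.27, and with 0.1 they were 7.71, 7.16 and 7.59, each past the threshold. Pancreas is a known source of Pdx1 RNA, and its markers varied over more than 5 log2 units among the duodenal libraries. The part of tissue makeup in the Pdx1 values was not tested. Pdx1 was at 4.81 in the duodenal library with the lowest pancreas marker mean (SBR vehicle 1, 1.57) and at 4.58 in that with the highest (SBR WUSTL0717 4, 6.72), and its r with that mean over the 11 duodenal libraries was −0.29 after subtracting group means. Measured the same way, r was 0.50 with stomach, 0.64 with Brunner gland, 0.59 with epithelial, 0.74 with smooth muscle and 0.83 with fibroblast and mesothelial markers.

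The genes whose values across the 22 libraries were most like those of Pdx1 were Gm11376, Otop3, Prdm16, Onecut2 and Papss2, with Pearson r between 0.993 and 0.997 as a description of libraries that split by region. Onecut2, a homeodomain factor of the duodenum, was 4.38 higher there in sham vehicle mice (SE 0.257, adjusted p = 7.59e-11, limma), 4.23 in SBR vehicle and 4.56 in SBR WUSTL0717 mice, or 4.83, 5.16 and 5.45 after centring. Osr2, a zinc finger factor, had the opposite pattern, at −0.79 to −0.73 in the duodenum and 3.39 to 4.14 in the ileum.

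Gata4 was nearly flat across the duodenum and variable in the ileum. Duodenal values were 5.92, 5.76 and 6.21 in sham vehicle, 6.28, 6.01, 6.18 and 6.05 in SBR vehicle and 6.24, 5.74, 5.99 and 6.19 in SBR WUSTL0717 mice. Ileal values were 4.68, 5.05 and 4.83 in sham vehicle, 3.34, 3.77, 1.42 and 2.29 in SBR vehicle and 3.44, 0.42, 3.56 and 4.24 in SBR WUSTL0717 mice. The ordering was duodenum over sham ileum over resected ileum, without overlap between these 3 sets of libraries. The duodenal groups overlapped one another, as did the resected ileal groups. The regional difference was 1.11 in sham vehicle (SE 0.669, adjusted p = 0.256, limma; exact permutation p = 0.1, the smallest that 3 against 3 libraries allow), 3.43 in SBR vehicle (SE 0.580, adjusted p = 9.76e-05) and 3.13 in SBR WUSTL0717 mice (SE 0.580, adjusted p = 0.000224). After centring the differences were 1.56 (adjusted p = 0.205, limma), 4.36 and 4.01. The limma error is pooled over all 6 groups, and an unmoderated two-sample test of the 6 sham libraries gave an adjusted p of 0.0474.

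Gata6 (ENSMUSG00000005836, chromosome 18), the other GATA factor of the epithelium, was also higher in the duodenum. Its duodenal values were 3.54, 4.36 and 5.35 in sham vehicle, 4.73, 4.49, 5.37 and 4.29 in SBR vehicle and 5.12, 4.40, 4.68 and 4.70 in SBR WUSTL0717 mice. In the ileum it measured 2.88, 2.88 and 3.28, then 3.73, 4.10, 2.57 and 3.16, then 3.25, 2.76, 4.15 and 3.92. No arm overlapped between regions, although sham duodenal libraries spread over nearly 2 log2 units. The difference was 1.41 (SE 0.47, adjusted p = 0.0461, limma), 1.33 (SE 0.404, adjusted p = 0.00878) and 1.20 (SE 0.404, adjusted p = 0.0161), and 1.86, 2.26 and 2.09 after centring. The sham call was lost on leaving out any of the 6 sham libraries other than duodenal sham vehicle 1, with the difference at 0.94 without duodenal sham vehicle 3, and in 4 other settings. In SBR WUSTL0717 mice it was lost without ileal replicate 2 (0.95).

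Of other GATA factors and cofactors, Gata5 and Zfpm1 were in the table. Zfpm1, which encodes FOG1, a partner protein of GATA factors, was higher in the duodenum by 2.50 in sham vehicle (SE 0.434, adjusted p = 0.000394, limma), 3.51 in SBR vehicle and 3.48 in SBR WUSTL0717 mice, or 2.96, 4.44 and 4.36 after centring. Gata5 ran the other way as deposited, at −0.70 (adjusted p = 0.0513, limma), −0.56 (adjusted p = 0.0241) and −0.82 (adjusted p = 0.00246), but at −0.24, 0.37 and 0.07 after centring.

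The caudal factors differed little between regions. Cdx1 (ENSMUSG00000024619, chromosome 18) measured 3.04 to 3.59 over the 11 duodenal libraries and 3.72 to 4.35 over the 11 ileal libraries, and Cdx2 measured 2.93 to 3.65 and 3.79 to 4.34. Both were therefore lower in every duodenal library than in any ileal one. Cdx1 differed by −0.51 in sham vehicle (adjusted p = 0.177, limma), −0.79 in SBR vehicle (adjusted p = 0.00563) and −0.83 in SBR WUSTL0717 mice (adjusted p = 0.00418). By limma Cdx2 differed by −0.55 (adjusted p = 0.154), −0.86 (adjusted p = 0.00329) and −1.02 (adjusted p = 0.000964). After centring, Cdx1 stood at −0.06, 0.14 and 0.06 and Cdx2 at −0.10, 0.07 and −0.14 (lowest adjusted p = 0.680, limma), so neither could be told from the median gene.

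Hnf4a was higher in the ileum, and its paralog Hnf4g did not pass the test in any arm as deposited. Duodenal Hnf4a was 6.98, 7.27 and 7.47 in sham vehicle, 8.33, 6.35, 7.71 and 7.22 in SBR vehicle and 7.69, 6.12, 6.54 and 7.40 in SBR WUSTL0717 mice. In the ileum the values were 8.81, 9.25 and 9.35, then 9.63, 9.69, 9.10 and 9.12, then 9.64, 9.79, 9.80 and 9.25. All ileal libraries lay above all duodenal libraries. The difference was −1.90 (SE 0.475, adjusted p = 0.00941, limma), −1.98 (SE 0.411, adjusted p = 0.000547) and −2.68 (SE 0.411, adjusted p = 3.40e-05) as duodenum minus ileum. After centring the differences were −1.45, −1.05 and −1.80, each still past the threshold. Markers of several cell types were also higher in the ileum. The mean over duodenal and over ileal libraries was 5.83 and 7.37 for 10 epithelial markers, 3.29 and 5.03 for 7 fibroblast and mesothelial markers, and 3.06 and 4.17 for 8 smooth muscle markers. Their part in the Hnf4a difference was not tested.

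Hnf4g spanned 3.31 to 4.54 in the duodenum and 3.31 to 4.32 in the ileum. Its regional difference moved from −0.46 in sham vehicle (adjusted p = 0.366, limma) to 0.06 in SBR vehicle (adjusted p = 0.879) and 0.64 in SBR WUSTL0717 mice (adjusted p = 0.0762). After centring these became −0.01, 0.99 and 1.52, the latter pair past the threshold (adjusted p = 0.00979 and 0.000271, limma). The Hnf4g calls in resected mice thus depended on the scaling. Libraries of the regions did not overlap for 6 of the 7 factors in each arm, Hnf4g being the exception, beside 37.9% of all genes in sham vehicle, 43.4% in SBR vehicle and 47.8% in SBR WUSTL0717 mice.

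**Figure D2:**
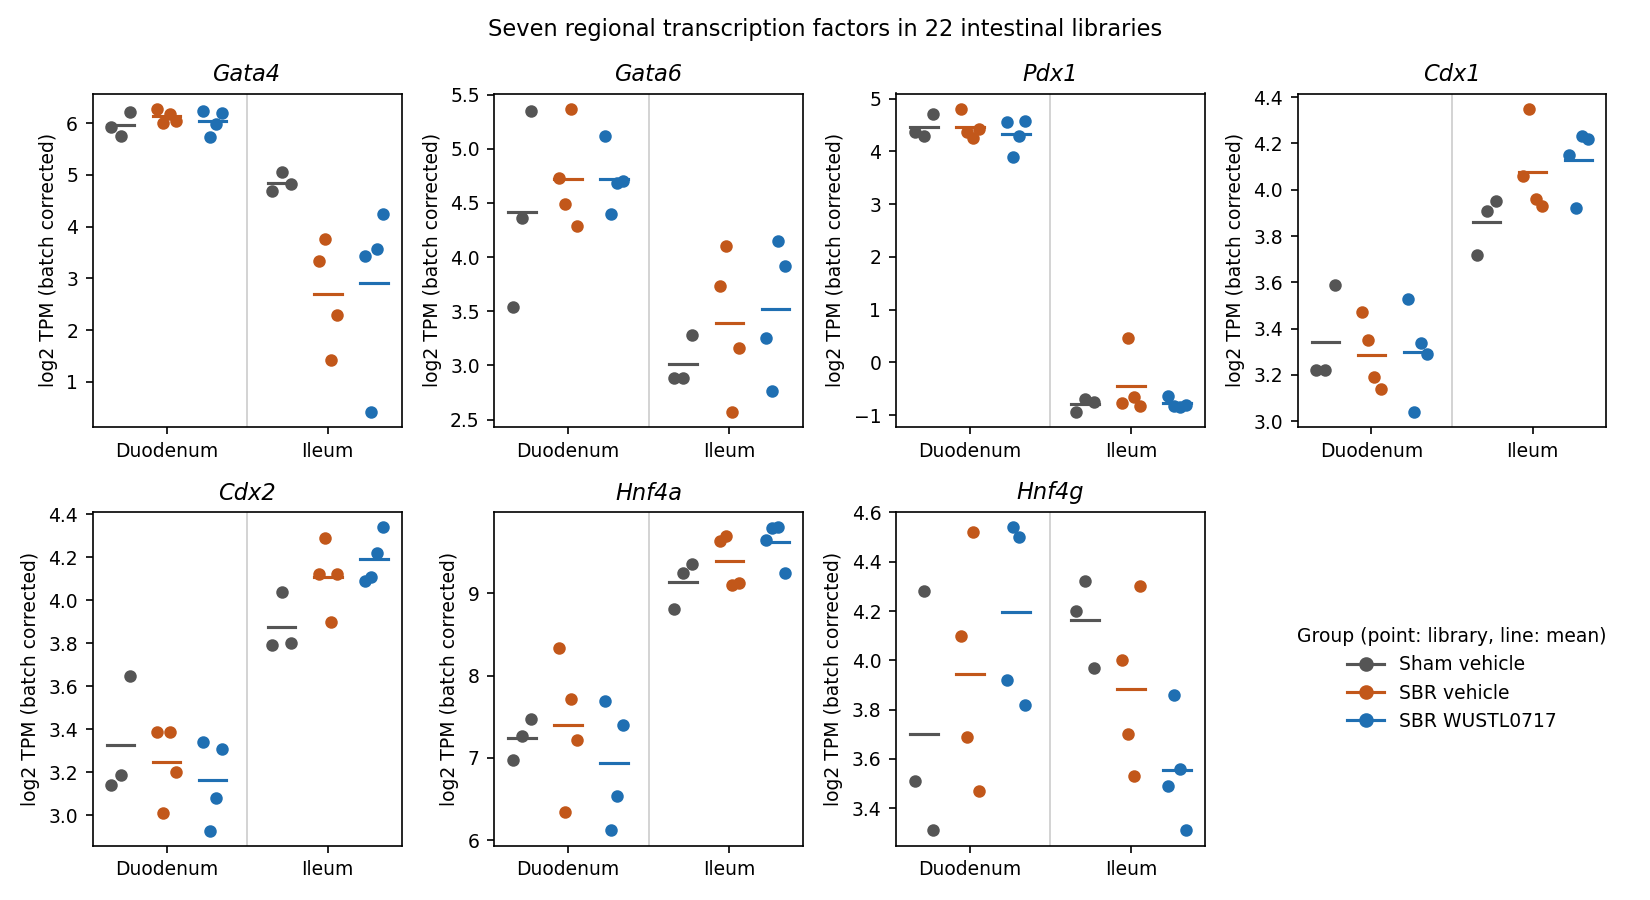
Log2 TPM (y axis, own scale for each gene) of the 7 factors in each of 22 libraries (points, with a line at the group mean), by region (x axis) and group (color). Ileal Gata4 lies at 4.68 to 5.05 in the sham vehicle libraries and at 0.42 to 4.24 in the 8 resected libraries, while its duodenal values lie between 5.74 and 6.28.

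**Figure D3:**
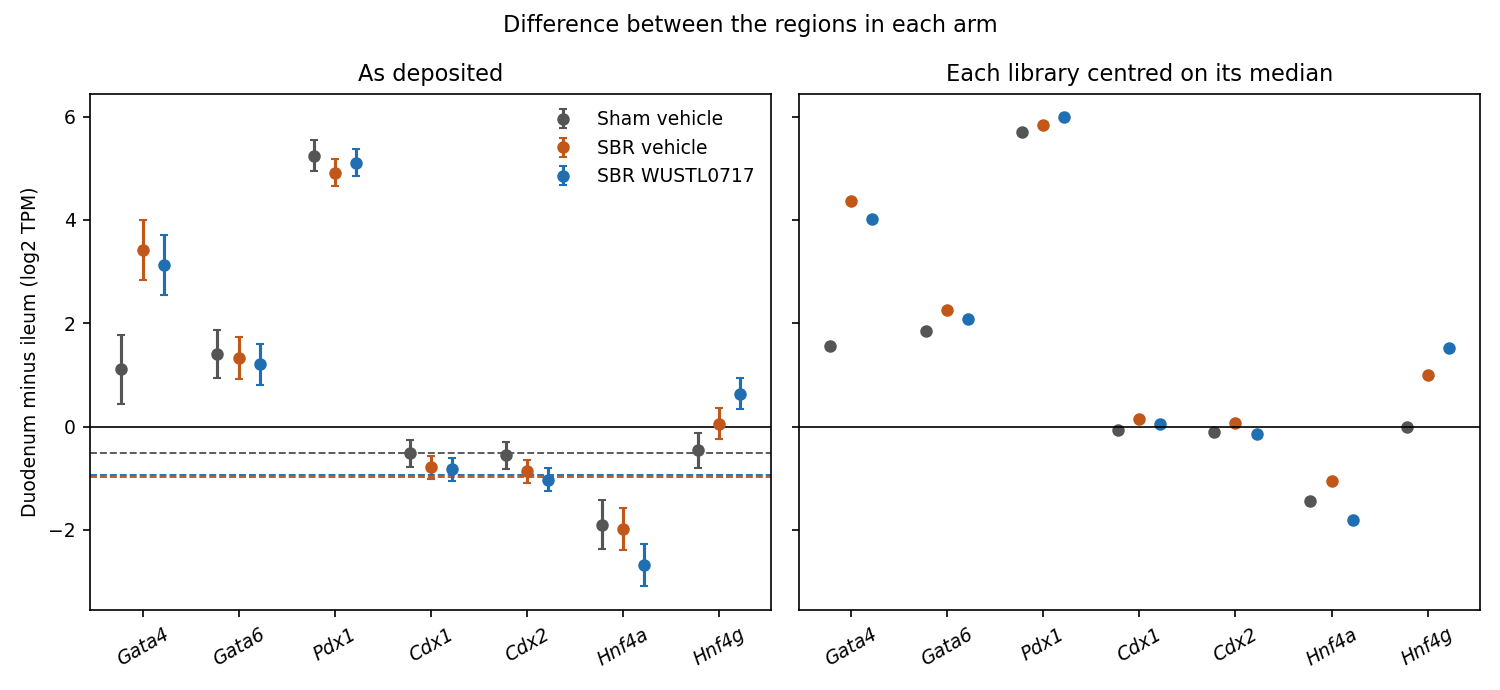
Duodenum minus ileum in log2 TPM (y axis) for each factor (x axis) and arm (color), as deposited with limma standard errors (left, dashed lines at the median of all genes in each arm) and with each library centred on its median (right, no error drawn). Pdx1 stands at 4.91 to 5.25 as deposited, and Cdx1 and Cdx2 move from below 0 to between −0.14 and 0.14 after centring.

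Genes known to be used in the proximal or distal bowel split by region in most cases. Of 14 proximal markers, 10 were higher and 1 lower in the duodenum of sham vehicle mice, 12 and 0 in SBR vehicle and 11 and 0 in SBR WUSTL0717 mice, with medians of 2.13, 2.74 and 2.40, where 3.83%, 6.77% and 7.13% of all genes were higher. Of 14 distal markers, 13 were lower in each arm and 0 higher, where 10.8%, 50.2% and 48.7% of all genes were lower. Among 4 tested genes known to depend on PDX1, Gip and Ada were higher in the duodenum in each arm. Of 15 known HNF4 targets, 4 were higher and 4 lower in sham vehicle, 6 and 4 in SBR vehicle and 6 and 5 in SBR WUSTL0717 mice.

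The next comparison asked whether resection changed the factors in the ileum. Gata4 had the largest difference of the 6 tested, lower in all 4 SBR vehicle libraries than in any sham library, but it did not pass the test over all genes. Its mean was 2.70 ± 1.06 (SD, n = 4) against 4.85 ± 0.19 (SD, n = 3), a difference of −2.15 (SE 0.790, adjusted p = 0.407, limma; exact permutation p = 0.0571). Leaving out each library in turn gave −2.50 to −1.72. Of the 6, 0 passed limma's adjusted test, where 0.349% of 15772 genes did. Gata4 alone had an unadjusted p under 0.05 (0.0186, limma), where 8.46% of all genes did. An unmoderated two-sample test called 0 of the 6, and only 5 of the 15772 genes. Gata4 was the only factor of the 6 whose groups did not overlap, as was found for 9.5% of all genes. Pdx1 lay below the filter of a mean of 1 in the ileum and was not fitted (exact permutation p = 0.543). The same libraries gave these levels of other cell types and of distal genes. The mean of 14 distal markers was 4.32 to 4.53 in sham vehicle, 4.93 to 5.24 in SBR vehicle and 5.10 to 5.33 in SBR WUSTL0717 mice, and that of 10 epithelial markers was 7.02 to 7.09, 7.21 to 7.64 and 7.33 to 7.76. In the same order, 7 fibroblast and mesothelial markers averaged 3.93 to 4.98, 4.98 to 5.78 and 4.91 to 5.60, 8 smooth muscle markers 3.45 to 4.90, 4.01 to 4.77 and 3.73 to 4.92, and 6 immune markers 3.74 to 4.39, 3.25 to 4.22 and 2.84 to 3.85. Cidec, a lipid droplet gene and the only adipocyte marker of the list in the table, measured 1.73 to 4.97, 4.23 to 5.61 and 6.08 to 6.81. Distal and epithelial markers were above sham in all 8 resected libraries, and the smooth muscle and immune ranges overlapped. The part of tissue makeup or of sampling position in the Gata4 difference was not tested.

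The other factors differed by at most 0.38 from sham in the ileum of SBR vehicle mice, beside a median of 0.07 over all genes. Gata6 differed by 0.38 (adjusted p = 0.945, limma), Cdx1 by 0.22, Cdx2 by 0.23, Hnf4a by 0.24 and Hnf4g by −0.28. Gata6, whose role in the epithelium overlaps that of Gata4, thus did not fall on average, and its rise could not be told from its spread.

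The difference of Gata4 between SBR vehicle and sham vehicle mice was −2.15 in the ileum and 0.17 in the duodenum, and the test of these effects against each other did not pass. Ileum minus duodenum, it was −2.32 (SE 0.886, adjusted p = 0.308, limma), with 0 of the 7 factors and 0.0754% of all genes passing and Gata4 alone at an unadjusted p under 0.05 (0.0161), where 13.8% of all genes were. The unmoderated test called 0 of the 7 as well, and 9 of all genes. The other 6 factors lay between −0.52 (Hnf4g) and 0.33 (Pdx1), beside a median of 0.44 over all genes. Calls over all genes were 5 higher and 7 lower as deposited, 11 and 49 after centring and 19 and 59 after quantile normalization.

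In the ileum of SBR WUSTL0717 mice Gata4 remained low on average, at 2.91 ± 1.70 (SD, n = 4). The difference from sham vehicle was −1.94 (SE 0.790, adjusted p = 0.287, limma; exact permutation p = 0.0571), and it was −1.11 without SBR WUSTL0717 2, the library at 0.42. Hnf4g was lower than in every sham library, at 3.49, 3.86, 3.56 and 3.31 against 4.20, 4.32 and 3.97, a difference of −0.61 (SE 0.257, adjusted p = 0.310, limma; exact permutation p = 0.0571). Cdx2 was above every sham library, at 4.09, 4.11, 4.22 and 4.34 against 3.79, 4.04 and 3.80, a difference of 0.31 (adjusted p = 0.594; exact permutation p = 0.0286, the smallest possible). Hnf4a differed by 0.48, Gata6 by 0.51 and Cdx1 by 0.27. By limma 0 of the 6 passed where 2.17% of all genes did, with Gata4 and Hnf4g at an unadjusted p under 0.05 (14.1% of all genes). The unmoderated test called 0 of the 6 and 31 of all genes. Groups did not overlap for Gata4, Hnf4g and Cdx2, 3 of 6 factors, and for 13.2% of all genes.

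WUSTL0717 itself was tested against vehicle within the resected mice. In the ileum the 6 factors differed by −0.33 (Hnf4g) to 0.24 (Hnf4a), with the lowest unadjusted p at 0.191. Gata4 differed by 0.21 with an SE of 0.732, so differences of 1 log2 unit in either direction lay within 2 SE. By limma 0 passed, where 0.0697% of all genes did, and 0 had an unadjusted p under 0.05, where 6.87% did. The unmoderated test called 0 of the 6 and 1 of all genes. All 6 overlapped between the groups, a count for which the share over all genes was not computed. As a difference of the drug effect between regions, the 7 factors lay between −0.58 (Hnf4g) and 0.70 (Hnf4a). Of these, 0 passed the limma test (0.0251% of all genes did) and 0 had an unadjusted p under 0.05 (3.33% of all genes). The unmoderated test called 0 of them and 1 of all genes. These comparisons share groups, so their results for a factor are not independent.

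In the duodenum no factor could be told from its spread. After SBR with vehicle the 7 factors differed from sham by −0.08 (Cdx2) to 0.30 (Gata6), while the median gene differed by −0.36. After centring they lay between 0.32 and 0.71, the lowest adjusted p being 0.365 (limma). Among all 15093 genes limma called 0, that is 0%, with 2426 at an unadjusted p under 0.05 and 1 called by the unmoderated test. The centred fit called 92 higher and 4 lower and the quantile fit 31 and 3. SBR WUSTL0717 differed from sham vehicle by −0.30 (Hnf4a) to 0.49 (Hnf4g), where 0.802% of genes passed, 113 higher and 8 lower as deposited and 203 and 45 after quantile normalization. WUSTL0717 differed from vehicle in resected mice by −0.46 (Hnf4a) to 0.25 (Hnf4g), where 0.258% passed. In these 3 comparisons 0 of the 7 factors passed limma's adjusted test, an unadjusted p under 0.05 or the unmoderated test. Over all genes, 16.1%, 16.9% and 5.31% had an unadjusted p under 0.05 in the same order, and the unmoderated test called 1, 2 and 2. Stomach markers were high in all 3 sham libraries and in 3 of the 8 resected ones, and duodenal Gata4 and Pdx1 of the 5 libraries without them lay at 5.74 to 6.19 and 3.89 to 4.58, against 5.76 to 6.28 and 4.29 to 4.81 in the 6 libraries with them. The part of the neighbouring tissue in these values was not tested.

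Genes known to answer to these factors were examined as lists. Of 7 tested genes known to depend on GATA4, Fabp6 and Slc10a2, which GATA4 represses in the proximal bowel, rose in the ileum over sham in both resected groups (0.349% of all genes were called with vehicle and 2.17% with WUSTL0717), and 0 fell by the limma test. Fabp6, the ileal bile acid binding protein, measured 6.35, 5.87 and 6.08 in sham vehicle, 8.33, 7.87, 8.37 and 8.03 in SBR vehicle and 7.96, 8.54, 7.91 and 7.71 in SBR WUSTL0717 mice. Slc10a2, the ileal bile acid importer, measured 5.18, 4.87 and 4.42, then 6.89, 6.74, 6.76 and 6.98, then 6.67, 7.19, 6.64 and 6.15. Both lay above sham in all 8 resected libraries. Over sham, the increase of Fabp6 was 2.05 (SE 0.288, adjusted p = 0.0137, limma) in SBR vehicle and 1.93 (adjusted p = 0.00829) in SBR WUSTL0717 mice, and that of Slc10a2 was 2.02 (SE 0.295, adjusted p = 0.0145) and 1.85 (adjusted p = 0.0104).

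Lct, the lactase gene that GATA4 activates, had ileal values of 4.21, 4.55 and 4.88 in sham vehicle, 2.18, 0.98, 0.06 and 1.60 in SBR vehicle and 2.83, 0.26, 3.16 and 3.97 in SBR WUSTL0717 mice. All 8 resected ileal libraries lay below sham, with differences of −3.34 (SE 0.736, adjusted p = 0.0981, limma) and −1.99 (SE 0.736, adjusted p = 0.231). Between regions Lct did not run with Gata4 in sham vehicle mice. Duodenal Lct measured 2.18, 3.83 and 3.88 there, below every sham ileal library, whereas Gata4 was higher in every sham duodenal library. In both resected arms the Lct values of the regions overlapped. In the ileum Zfpm1 was also below sham in all 8 resected libraries, by −1.18 (adjusted p = 0.281, limma) and −1.10 (adjusted p = 0.169). Hoxb6, a homeobox gene of posterior position, measured 1.34, 1.26 and 1.67 in sham vehicle, 2.73, 2.66, 3.35 and 3.12 in SBR vehicle and 2.60, 4.00, 2.71 and 2.67 in SBR WUSTL0717 mice. Hoxb6 stood 1.54 above sham in SBR vehicle mice (adjusted p = 0.112, limma) and was 1.57 above sham in SBR WUSTL0717 mice (adjusted p = 0.0411), the resected groups themselves having means of 2.96 and 3.00.

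By list, 2 of 14 distal markers rose over sham in the ileum of SBR vehicle mice (0.349% of all genes were called) and 5 of 14 in that of SBR WUSTL0717 mice (2.17% were called) (Fabp6 and Slc10a2, counted above as well, Pyy and Nts had the smallest p-values), 0 fell, and the medians were 0.44 and 0.47 beside 0.07 over all genes in each. Of 12 proximal markers tested in the ileum, 0 passed limma's adjusted test in either comparison, with 5 and 4 at an unadjusted p under 0.05. Of 9 known CDX2 targets, 15 known HNF4 targets and 4 genes known to depend on PDX1, 0 passed limma's adjusted test in the ileum in any of the 3 comparisons. Their counts at an unadjusted p under 0.05 were 2, 2 and 2 for SBR vehicle minus sham vehicle, 4, 6 and 2 for SBR WUSTL0717 minus sham vehicle and 1, 6 and 1 for WUSTL0717 minus vehicle, where the shares over all genes were 8.46%, 14.1% and 6.87%. In the duodenum, 3 of 15 HNF4 targets rose in SBR WUSTL0717 against sham vehicle mice (0.802% of all genes were called), while Hnf4a itself differed by −0.30 and Hnf4g by 0.49. They were Creb3l3, a lipid-responsive transcription factor, by 2.16 (adjusted p = 0.018, limma), Fabp2, the intestinal fatty acid binding protein, by 3.45 (adjusted p = 0.0348) and Mttp, which loads lipid onto lipoproteins, by 2.01 (adjusted p = 0.0432). All 3 sham libraries and 1 of the 4 treated ones held high stomach markers, whose part in these differences was not tested.

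Among the 8 resected ileal libraries Gata4 spread over nearly 4 log2 units, and its values were set against 11 other genes. These genes were picked with their values known, so the correlations are a description and no p is given. Zfpm1 followed Gata4 with r = 0.96 and rho = 1, and with r = 0.95 without the 2 libraries farthest from the median, SBR WUSTL0717 2 and SBR vehicle 3. Hoxb6 ran the other way, with r = −0.97 and rho = −0.83, and r = −0.86 without those 2. Fabp6 had r = −0.85 and rho = −0.98, but r = −0.53 without those 2, so the size of its r depends on them. Lct had r = 0.80 and rho = 0.74, with r = 0.52 without them, so the size of its r too depends on those libraries. For Slc10a2 r was −0.76 and rho −0.86, with r = −0.82 without them. The remaining 6 (Cubn, Nts, Pyy, Onecut2, Osr2 and Gata5) had r between −0.30 and 0.27. Without those 2 libraries their r ran from −0.36 (Cubn) to 0.63 (Pyy, at −0.13 with them).

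**Figure D4:**
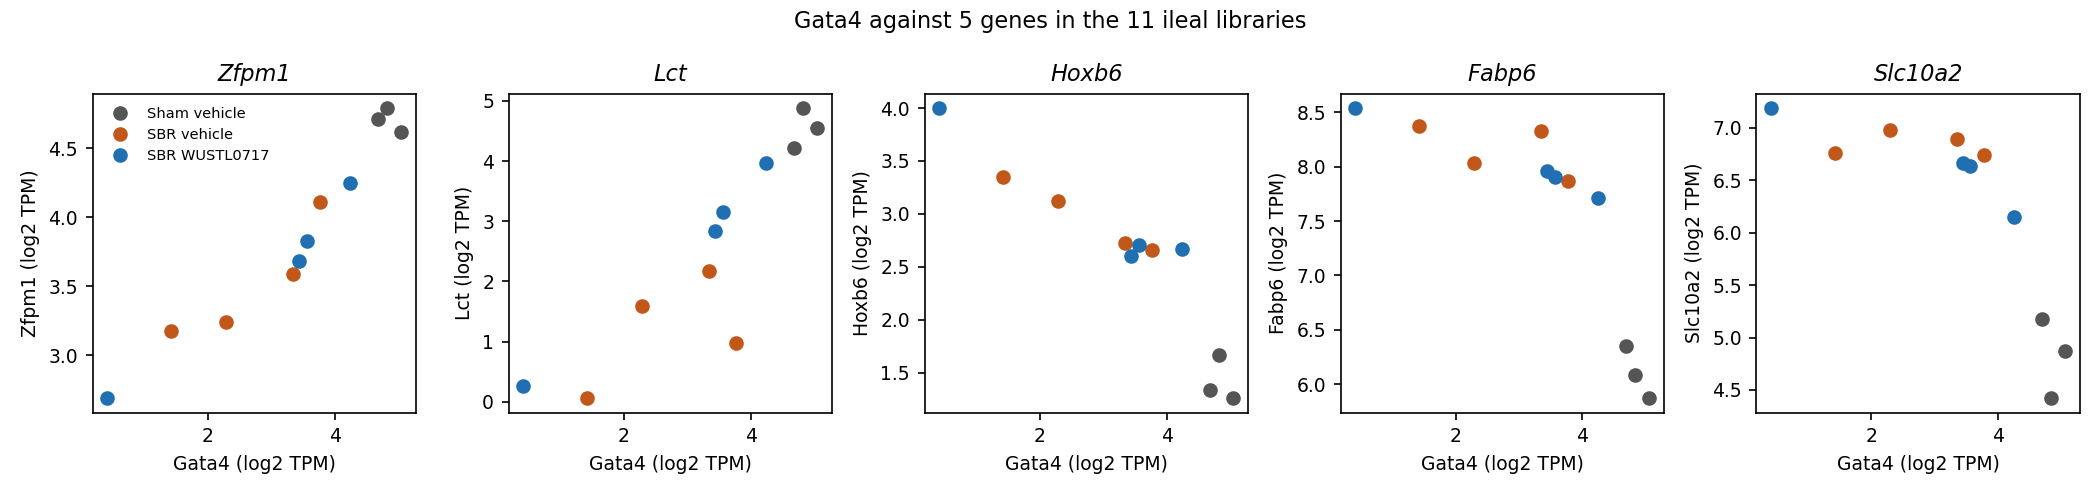
Gata4 (x axis, log2 TPM) against Zfpm1, Lct, Hoxb6, Fabp6 and Slc10a2 (y axes, log2 TPM) in the 11 ileal libraries (points, colored by group). Zfpm1 runs from 2.69 where Gata4 is 0.42 to 4.79 in sham vehicle mice, and Hoxb6 from 4.00 down to 1.26 to 1.67.

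Over all 11 ileal libraries with the group means subtracted, the genes most like Gata4 were Slc49a4 (r = 0.96), Zfpm1 (0.95), 5830448L01Rik (0.95), Adh6a (0.95) and Amn (0.94), given as a description. Amn encodes a partner of Cubn in vitamin B12 uptake and is among the distal markers. Measured the same way, Gata6 had r = 0.85 with Gata4, Cdx1 0.79 and Cdx2 0.64, while Hnf4a had 0.09 and Hnf4g −0.36. The median of the library had r = −0.79 with Gata4, and SBR WUSTL0717 2, the library with the lowest Gata4, also had the highest ileal median (3.82). The part of that median in these relations was not tested. In the duodenum Gata4 ran with Cdx2 (r = 0.92), Pdx1 (0.88), Cdx1 (0.82) and Hnf4a (0.78), although it spread there over only 5.74 to 6.28. The median of the duodenal libraries had r = 0.57 with Gata4, 0.65 with Cdx2, 0.54 with Pdx1, 0.64 with Cdx1 and 0.78 with Hnf4a. Hnf4g was the factor apart in both regions, with r between −0.54 and 0.11 to each of the others.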

How the data were processed

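The authors aligned ribosome-depleted total RNA reads with STAR to GRCm38, counted unambiguous unique reads with featureCounts, scaled them with TMM factors, and deposited log2 TPM after ComBat correction between batch 1 (intestine) and batch 2 (liver). Strandedness of counting and read totals were not given in the sources used here, so precision could be judged only from the spread between libraries. Whether an equal replicate number in duodenum and ileum marks the same mouse was not stated. If libraries of a group were not from separate mice, p-values measure technical spread. If both regions came from the same mice, the regional tests, which treat libraries as independent, leave that pairing out.

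From these values, limma 3.58.1 (R 4.3.3; empirical Bayes with a variance trend, Benjamini-Hochberg adjustment) was fitted per region to 11 libraries and 3 groups, on genes with a mean of at least 1, and to all 22 libraries in 6 groups for duodenum minus ileum and for the difference of effects. Calls required an adjusted p under 0.05. Exact two-sided permutation tests were added for each factor (smallest p 0.1 for 3 against 3, 0.0286 for groups holding 4). The code was tested on simulated data. Correlations were computed in Python 3.11.15 (numpy 2.4.6), and figures were drawn with matplotlib 3.10.9. Alternatives were other filters, pseudocounts, scalings, library weights, groups alone, an unmoderated test (the kind the study used), a replicate block and leaving out each library.

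The factors and gene lists were chosen with earlier results of these data known. Named were the 7 factors, at most 4 genes of a list, and the 5 genes most alike; the 11 genes set against Gata4, the left-out stomach-marker libraries and the promoters shown were chosen after values had been seen.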

Additional observations from a re-analysis of the deposited data

Results flagged for a closer look

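Of 72 groups of 4 libraries examined for a library far from the others, 4 held one, and chance flags about 1 in 20 such groups. Pdx1 in ileal SBR vehicle 2 measured 0.47, where the other 3 libraries of the group lay between −0.82 and −0.66. Hoxb6 in ileal SBR WUSTL0717 2, the library with the lowest Gata4 (0.42), measured 4.00 against 2.60 to 2.71 in the others. Onecut2 in duodenal SBR WUSTL0717 1, the only library of its group with high stomach markers (mean 6.05), measured 5.77 against 5.61 to 5.64. Pyy in ileal SBR vehicle 1 measured 4.17 against 3.97 to 3.98, a gap of 0.2 log2 units or less.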

How the results depend on the processing

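Within a region, 0 factors were called under every alternative run, by limma or by the unmoderated test. Between regions, library weights called 5 factors in sham vehicle mice (3 as reported), and leaving out a library gave 2 to 3. The filter at 3 removed Pdx1 (mean of 1.88 over the 22 libraries) from the test and called 2 of the other factors there. The Pdx1 difference ranged from 2.27 (pseudocount 5) to 7.71 (pseudocount 0.1), and at 5 it was below that of Gata4 in both resected arms. SBR vehicle gave 5 to 6 and SBR WUSTL0717 5 to 7. Library weights called 1 factor, Gata4, in the SBR effect between regions (adjusted p = 0.0426, limma; 0 as reported). The same setting gave the most calls over all genes in that comparison, as listed in the next paragraph. Between regions, directions reversed, with no reversed value past the threshold though Cdx1 and Cdx2 were called as deposited, in Hnf4g in sham vehicle (0.040, quantile normalization), in SBR vehicle in Cdx1 (0.14 centred, 0.15 quantile), Cdx2 (0.069 and 0.077) and Hnf4g (−0.17 with library weights, −0.13 to 0.22 leaving out a library), and in Cdx1 in SBR WUSTL0717 (0.055 and 0.069). Elsewhere signs changed under some alternative for 6, 4 and 6 of 7 uncalled factors in the duodenum (SBR vehicle minus sham, WUSTL0717 minus vehicle, SBR WUSTL0717 minus sham), for Gata4 and Gata6 in WUSTL0717 minus vehicle in the ileum, and for 5 and 4 factors in the effect differences. In the ileum, Gata4 stayed between −2.38 and −1.58 for SBR vehicle minus sham (adjusted p 0.0852 to 0.582, limma) and between −2.37 and −1.34 for SBR WUSTL0717 minus sham. With the replicate number as a block, 2 factors were called between regions in sham vehicle (Gata6 lost), 6 in each resected arm and 0 elsewhere. Equal numbers had correlations of −0.30 to 0.33 in the duodenum, −0.32 to 0.24 in the ileum and −0.14 to 0.45 across regions, and they were not taken as pairs. Across regions the median was 0.08, against −0.04 for unequal numbers of the same arm, which cannot show whether the mice were the same. Without the resected duodenal libraries holding stomach markers, chosen after seeing the data, 6, 6, 0 and 0 factors were called in the resected arms and the effect differences.

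Calls over all genes moved more. They ranged over 0 to 2497, 2 to 85 and 1 to 1124 in the duodenum (SBR vehicle minus sham, WUSTL0717 minus vehicle, SBR WUSTL0717 minus sham; 0, 39 and 121 reported), 5 to 279, 1 to 18 and 31 to 764 in the ileum (55, 11 and 343), 1069 to 5549, 4826 to 10770 and 4737 to 9811 between regions (2331, 9068 and 8895), and 1 to 1989 and 1 to 9 for the effect differences (12 and 4), with library weights highest in all but the last. The 1989 calls, among 15923 genes tested, came under the library weights that also called Gata4 in the SBR effect between regions. Leaving out duodenal SBR vehicle 1 raised SBR vehicle minus sham to 589 and its effect difference to 229. Leaving out a library gave 3 (without sham vehicle 2) to 38 calls for SBR vehicle minus sham in the ileum, 65 to 241 for SBR WUSTL0717 minus sham there, and 22 to 84 in the duodenum. The table gives no counts, and with 3 or 4 libraries a group and SDs of up to 1.70 even ileal Gata4 differences near 2 units did not pass.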
